A study of Mus musculus with 16 samples.

Results

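The genes described here are 10 markers of Kupffer cells and other macrophages, Adgre1, Cd68, Csf1r, Mpeg1, Lyz2, Clec4f, Vsig4, Timd4, Marco and Cd5l, taken by gene name from the 24539 genes of the count tables. They were measured in livers of male C57BL/6 mice that started their diets at 8 weeks of age and were 16 weeks old at the end. HB mice received betaine, which donates a methyl group to homocysteine, with a high-fat diet, and HF mice received the high-fat diet without it, so both groups were fed fat. For each diet there were 2 libraries of total polyadenylated mRNA, 2 libraries of mRNA recovered with ribosomes and their nascent chains (called ribosome-bound here) and 2 lists of peaks from an antibody against N6-methyladenosine (m6A). Each mRNA and ribosome-bound library was made from a pool of 2 independent experiments, per the labels, so the p-values measure how these pools differed and not how mice differed. No group on a normal diet was analysed here.

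Kupffer cells are the resident macrophages of the liver sinusoids, where they take up particles, dying cells and lipoproteins from the blood. They are marked by a shared set of macrophage genes and by a narrower set that the liver environment induces, and in a damaged liver they can be replaced by cells that derive from blood monocytes. A first group of 5 genes is used for macrophages in general. Adgre1 encodes an adhesion G protein-coupled receptor, Cd68 a lysosomal membrane glycoprotein, Csf1r the receptor for the growth factors CSF1 and IL-34, Mpeg1 the pore-forming protein perforin-2, and Lyz2 lysozyme. The other 5 are used for resident Kupffer cells. Clec4f encodes a C-type lectin found almost only on mouse Kupffer cells, Vsig4 a complement receptor, Timd4 a phosphatidylserine receptor typical of long-lived resident cells, Marco a scavenger receptor and Cd5l a secreted protein that inhibits apoptosis of macrophages.

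The libraries held 11437462 to 22492813 counted reads for total mRNA and 5778439 to 8659310 for ribosome-bound mRNA, and the total mRNA libraries of HB mice were the deepest. All 10 markers had reads in every total mRNA library, with as few as 20 for Marco in HF replicate 1. Macrophage transcripts were thus present in each, which does not by itself identify the tissue. The pair of HB ribosome-bound libraries was nearly as alike as resequencing of a single library would make it (chi-square per degree of freedom 1.40, against 98.1 for the HF ribosome-bound pair, 100.2 for HB mRNA and 35.0 for HF mRNA). These HB libraries were therefore summed and counted as 1 in the tests, except in alternatives that name 4 ribosome-bound or 8 libraries. The ribosome-bound libraries also held few low counts. Of the genes detected in them, 2.84% to 4.67% had 1 to 20 reads, compared with 22.9% to 24.9% in total mRNA, so a gene there tends to have either 0 or well over 20 reads.

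Per unit length, Clec4f was the most abundant of the 10 markers in total mRNA under both diets. Its deposited RPKM was 48.9 and 49.6 in HB livers and 72.6 and 64.4 in HF livers. In HB livers it was followed by Cd5l with 41.4 and 32.6 RPKM and Lyz2 with 38.3 and 35.6 RPKM, whose ranges overlapped. Vsig4 (16.8 and 11.01 RPKM), Cd68 (14.7 and 13.1), Mpeg1 (11.02 and 7.02) and Csf1r (10.4 and 9.09) came next in HB livers. In this order Vsig4 overlapped Cd68 and Mpeg1 overlapped Csf1r, while Cd68 lay above Mpeg1 in both HB libraries. In HF livers Cd68 (11.9 and 18.8 RPKM) and Cd5l (11.3 and 18.8) stood second, and the range of Cd5l overlapped that of Lyz2 with 5.19 and 11.5 RPKM. Marco, Adgre1 and Timd4 were the lowest under both diets, between 0.682 and 3.69 RPKM in HB livers and between 0.678 and 2.53 RPKM in HF livers.

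Betaine livers held more mRNA of Lyz2, Cd5l, Marco and Vsig4, a lysozyme, a secreted macrophage protein and a pair of surface receptors for particles and complement. These 4 of the 10 markers passed the test as higher in HB, and 0 passed as lower. Across the 12817 genes tested in total mRNA, 21.4% were called, 11.3% higher and 10.1% lower (1446 and 1294 genes, or 783 and 2320 when libraries were scaled to their total counts). Under that scaling 2 of the 10 markers passed, Lyz2 and Cd5l, and the adjusted p was 0.0536 for Marco and 0.0737 for Vsig4. The median log2 change of the 10 markers was 0.81, while that of all genes tested was 0.01. Of the 5 general macrophage markers 1 was called, with a list median of 0.62, and of the 5 resident Kupffer cell markers 3 were called, with a list median of 1.32. In bulk liver RNA a different number of macrophages and a different amount of a transcript per macrophage cannot be told apart. All levels from here on are library-scaled read counts (CPM) after TMM scaling of the 4 mRNA libraries, unless another unit is named, and the threshold is an adjusted p of 0.05 (edgeR quasi-likelihood test, Benjamini-Hochberg).

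**Figure D1:**
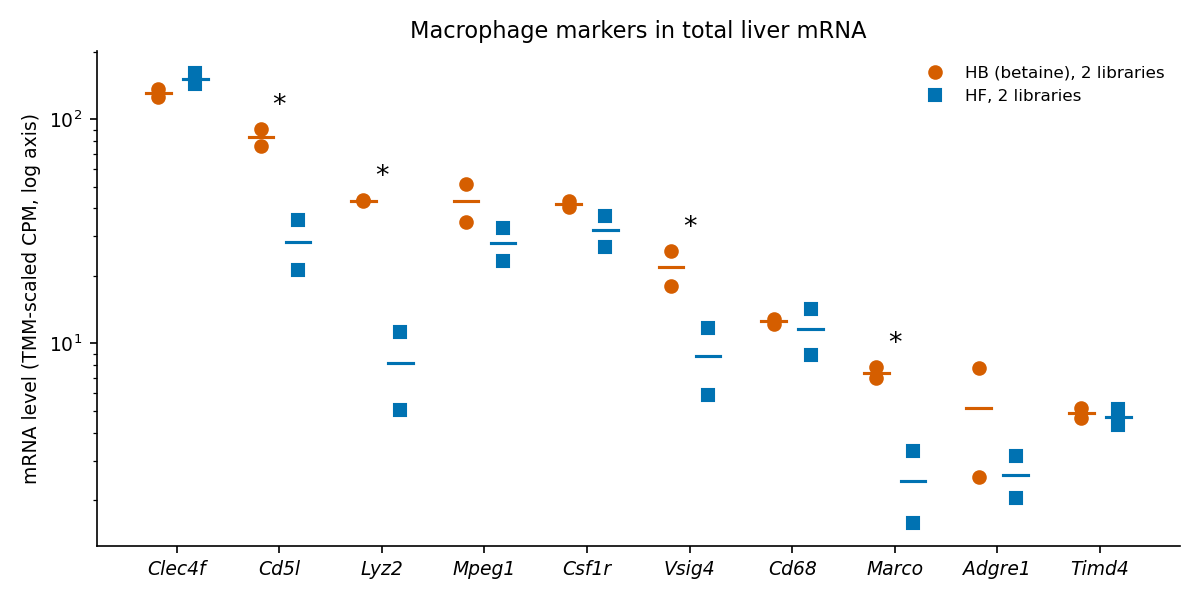
Levels of the 10 markers in total liver mRNA, with 1 point per library, HB left (circles) and HF right (squares) of each gene, group means as lines, and an asterisk where the adjusted p was below 0.05. The HB points of Lyz2, Cd5l, Marco and Vsig4 lie above both HF points, those of Clec4f lie below, and the diets overlap for Cd68, Adgre1 and Timd4.

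Lyz2 (NM_017372, chr10:117277541-117282272 in GRCm38.p6) stood at 43.5 and 43.2 CPM in HB livers, against 5.05 and 11.3 CPM in HF livers. The HB libraries were nearly equal, and the groups did not overlap. Its mean was 43.3 ± 0.203 CPM in HB and 8.18 ± 4.42 CPM in HF (SD, n = 2 each), a log2 change of 2.40 ± 0.38 (SE), or 5.29-fold, with an edgeR adjusted p of 0.00486. Lyz2 has a close relative, Lyz1, with which it can share reads. Lyz1 had 211 and 212 reads in HB mRNA and 56 and 128 reads in HF mRNA, against 913 and 680 for Lyz2 in HB mRNA and 64 and 144 in HF mRNA. How the counting divided reads between these genes was not stated, so the level of Lyz2 alone is uncertain. Summed as 1 gene, the pair rose by 1.84 on the log2 scale (edgeR adjusted p = 0.00896), a sum that was chosen after the data were seen.

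Cd5l (NM_009690, chr3:87357881-87371074) stood at 90.5 and 76.3 CPM in HB livers, against 21.2 and 35.6 CPM in HF livers. Both HB libraries were above both HF libraries, with a log2 change of 1.55 ± 0.32 (2.94-fold, edgeR adjusted p = 0.00949). Marco (NM_010766, chr1:120474538-120505024) was scarcer, at 7.85 and 6.98 CPM in HB livers and 1.58 and 3.30 CPM in HF livers, and rose by 1.60 ± 0.44 on the log2 scale (3.04-fold, edgeR adjusted p = 0.0269). Vsig4 (NM_177789, chrX:96247201-96293438) stood at 25.8 and 18.1 CPM in HB livers and at 5.92 and 11.7 CPM in HF livers, a log2 change of 1.32 ± 0.38 (2.49-fold, edgeR adjusted p = 0.0305). In all 4 genes HF replicate 1 was the lowest of the 4 libraries. Without HF replicate 1 the adjusted p was 0.123 for Cd5l, 0.251 for Marco and 0.313 for Vsig4, and without HB replicate 1 it was 0.0595, 0.121 and 0.169 for the same genes. Without HB replicate 2 the value for Marco was 0.0657. Lyz2 passed without any 1 of the 4 libraries, with adjusted p-values of 5.24e-05 to 0.0462.

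The promoters of these 4 genes, with that of Clec4f, which did not move with them, are printed because 3 of them share a short word. Each line gives the 250 bases before the annotated start of the gene on its own strand, 5′ to 3′, from RefSeq on GRCm38.p6. They span chr10:117282273-117282522 (minus strand) for Lyz2, chr3:87357631-87357880 (plus) for Cd5l, chr1:120505025-120505274 (minus) for Marco, chrX:96293439-96293688 (minus) for Vsig4 and chr6:83656117-83656366 (minus) for Clec4f. Capitals mark the letters GAGGAA, the core that the macrophage factor Spi1 is known to bind, or their reverse complement TTCCTC.
Lyz2: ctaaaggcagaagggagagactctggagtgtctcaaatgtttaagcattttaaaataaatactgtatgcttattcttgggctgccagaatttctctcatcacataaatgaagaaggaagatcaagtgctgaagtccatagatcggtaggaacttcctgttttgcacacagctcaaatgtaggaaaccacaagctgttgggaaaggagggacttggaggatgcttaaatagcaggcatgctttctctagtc
Cd5l: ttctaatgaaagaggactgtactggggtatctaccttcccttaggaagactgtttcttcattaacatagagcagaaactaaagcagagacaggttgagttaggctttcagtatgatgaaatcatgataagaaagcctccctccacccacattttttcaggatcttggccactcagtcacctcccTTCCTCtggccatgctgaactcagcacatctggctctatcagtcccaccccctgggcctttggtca
Marco: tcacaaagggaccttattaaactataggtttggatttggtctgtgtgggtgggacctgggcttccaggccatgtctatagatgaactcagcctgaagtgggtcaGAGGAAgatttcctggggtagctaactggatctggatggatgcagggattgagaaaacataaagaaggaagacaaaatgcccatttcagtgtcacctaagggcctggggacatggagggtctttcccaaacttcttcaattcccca
Vsig4: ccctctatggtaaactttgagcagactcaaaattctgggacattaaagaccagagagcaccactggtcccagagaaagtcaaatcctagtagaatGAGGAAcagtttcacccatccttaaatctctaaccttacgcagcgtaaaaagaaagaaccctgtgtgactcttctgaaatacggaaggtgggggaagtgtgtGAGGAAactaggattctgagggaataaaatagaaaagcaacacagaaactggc
Clec4f: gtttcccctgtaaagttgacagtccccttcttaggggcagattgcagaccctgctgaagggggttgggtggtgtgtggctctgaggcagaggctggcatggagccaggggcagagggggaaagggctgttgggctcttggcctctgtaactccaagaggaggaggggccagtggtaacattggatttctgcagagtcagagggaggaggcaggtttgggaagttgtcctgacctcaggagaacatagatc
GAGGAA, searched on both strands, occurred in 4 of the 8 markers with a promoter in the RefSeq table, namely Cd5l, Cd68, Marco and Vsig4, and in 23.1% of 27025 mouse promoters of the same length. The word began 66 bases before the start in Cd5l, 146 in Marco, and 155 and 53 in Vsig4. It was not in the windows of Clec4f and of Lyz2, which rose most. Cd68, whose promoter has the word and is not printed, was not called (log2 difference 0.12). Whether the word goes with the change was not tested. No word searched contains another. The C/EBP word TTGCNNAA and the AP-1 word TGANTCA each occurred in Cd68 and in none of the 7 other promoters, against 9.55% and 6.87% of all promoters. A match is a description of the sequence and not a binding site.

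The other 6 markers did not pass the test. Clec4f (NM_016751, chr6:83644542-83656116), the most specific of the Kupffer cell markers, stood at 126.0 and 136.5 CPM in HB livers and at 160.4 and 143.5 CPM in HF livers. Both HB values were below both HF values, with a log2 difference of -0.21 ± 0.28 (edgeR adjusted p = 0.613). Timd4, the marker of long-lived resident cells, stood at 5.14 and 4.63 CPM in HB livers and 4.34 and 5.10 CPM in HF livers, and its groups overlapped (log2 difference 0.05 ± 0.38, edgeR adjusted p = 0.934). Cd68 stood at 12.9 and 12.3 CPM in HB livers and at 8.92 and 14.2 CPM in HF livers, with overlap and a log2 difference of 0.12 ± 0.33 (edgeR adjusted p = 0.825). The signs of Cd68 and Timd4 turned under scaling to total counts, to log2 differences of -0.17 and -0.23.

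Mpeg1 stood at 51.3 and 34.9 CPM in HB livers and at 23.4 and 32.6 CPM in HF livers, and Csf1r at 43.0 and 40.4 CPM in HB livers and at 26.98 and 37.1 CPM in HF livers. Their HB libraries lay above their HF libraries, with log2 differences of 0.62 ± 0.31 for Mpeg1 (edgeR adjusted p = 0.161) and 0.38 ± 0.28 for Csf1r (edgeR adjusted p = 0.348). Adgre1 stood at 7.76 and 2.54 CPM in HB livers and at 3.16 and 2.04 CPM in HF livers. HB replicate 1 alone was high, the groups overlapped, and without that library the log2 difference was -0.03 in place of 1.00. Counted over all 10 markers, 6 had both HB libraries above both HF libraries, 1 had both below, and 3 overlapped. Over all genes tested, 32.8% had both HB libraries above and 32.1% below.

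Summed over the 10 markers, the level was 413.5 and 375.8 CPM in HB livers and 261.0 and 296.3 CPM in HF livers, a ratio of means of 1.42. The ratio was 1.16 when libraries were scaled to their total counts, a scaling that moved the median log2 change of all genes to -0.28. Clec4f made up 30.5% and 36.3% of the sum in HB livers and 61.5% and 48.4% in HF livers. Without it the other 9 markers summed to 287.6 and 239.3 CPM in HB livers and 100.6 and 152.9 CPM in HF livers, a ratio of 2.08. Leaving out Lyz2 in place of Clec4f lowered the ratio to 1.30. The 5 general markers had a ratio of 1.77 and the 5 resident markers of 1.27. Among the general markers, Lyz2 alone held 43.3 of a mean sum of 145.8 CPM in HB and 8.18 of 82.4 CPM in HF. No test was made on these sums.

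Other genes of macrophages were taken from lists, chosen with earlier results of these data known. Of 12 further Kupffer cell genes tested, 3 rose in HB and 0 fell, with a list median log2 change of 0.73. Over all genes tested, 11.3% were called higher and 10.1% lower, with a median of 0.01. Folr2, a folate receptor of resident macrophages, stood at 14.7 and 18.1 CPM in HB livers and 4.50 and 5.42 CPM in HF livers, a log2 change of 1.72 ± 0.33 (edgeR adjusted p = 0.00837). C1qc, a chain of the complement component C1q, stood at 50.3 and 61.6 CPM in HB livers and 17.9 and 23.0 CPM in HF livers, a log2 change of 1.45 ± 0.29 (edgeR adjusted p = 0.00894). C1qb, another chain, was the third called gene, with a log2 change of 1.08 (edgeR adjusted p = 0.0205), and the remaining chain C1qa was not called (0.77, edgeR adjusted p = 0.0961). The iron exporter Slc40a1, the mannose receptor Mrc1 and the haemoglobin scavenger receptor Cd163 were not called, with log2 differences of 0.10, -0.18 and -0.66. Without HF replicate 1, 0 of the 12 genes passed (edgeR adjusted p = 0.0600 for Folr2 and 0.113 for C1qc). Without HF replicate 2 the adjusted p of C1qb was 0.123.

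Of 8 transcription factors of macrophages tested, 0 rose and 1 fell, with a list median of -0.42, beside 11.3% of all genes called higher and 10.1% lower. Maf, a factor of tissue macrophages that other cells also express, fell to 17.6 and 10.4 CPM in HB livers, against 30.6 and 29.2 CPM in HF livers (log2 change -1.10 ± 0.33, edgeR adjusted p = 0.0352). Maf passed without HB replicate 1 and did not without any other single library (edgeR adjusted p = 0.0730 to 0.161), nor with the length trend described below removed (0.0550). Spi1 stood at 6.996 and 11.4 CPM in HB livers and at 10.9 and 11.4 CPM in HF livers and was not called, and Nr1h3, which encodes a liver X receptor, was not called either (log2 difference -0.05). Of 6 genes of apoptotic cell uptake, 0 rose and 1 fell, with a list median of 0.32. This was Mertk, a receptor tyrosine kinase for bridged phosphatidylserine, at 18.9 and 20.2 CPM in HB livers and at 38.9 and 55.4 CPM in HF livers (log2 change -1.27 ± 0.29, edgeR adjusted p = 0.0143). Mertk did not pass without HB replicate 1 (0.0658) or HF replicate 2 (0.143).

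**Figure D2:**
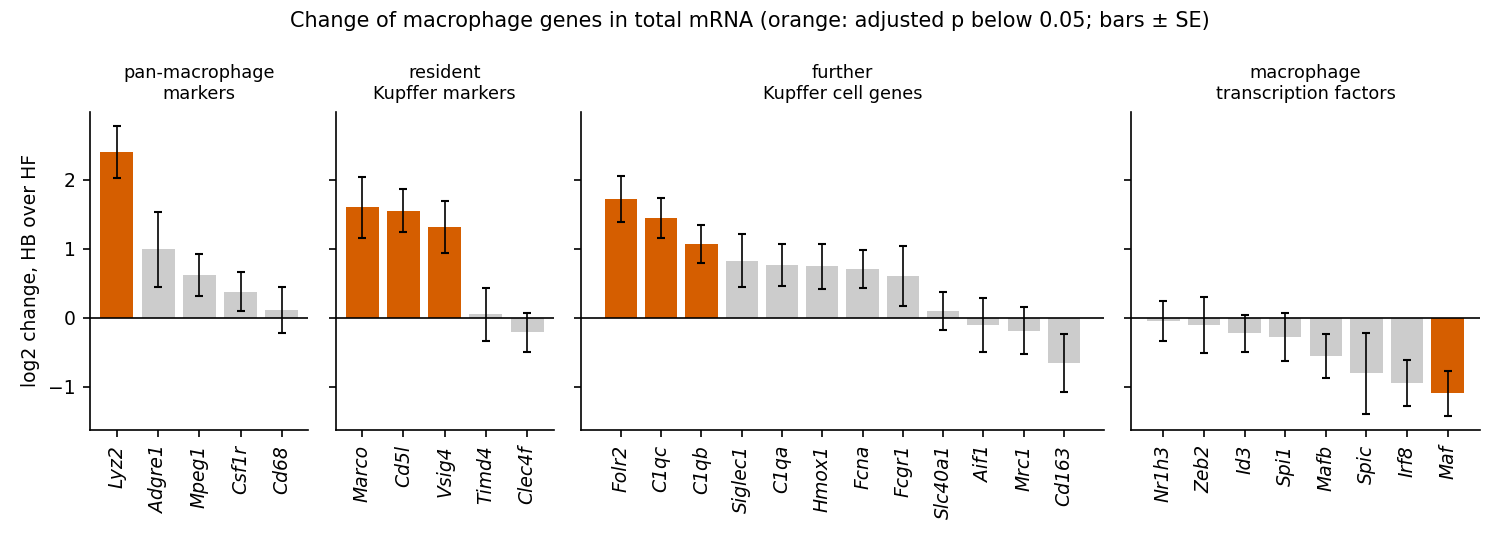
Log2 change in total mRNA, HB over HF, of the 10 markers in their 2 groups, of 12 further Kupffer cell genes and of 8 macrophage transcription factors, with standard errors as lines and genes past the threshold in orange. Marked genes rise in the first 3 panels, and Maf is the only marked gene in the last panel.

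Markers of other cell types moved in the same libraries, and their part in the results above was not tested. The counts below stand beside shares of 11.3% called higher and 10.1% called lower over all genes tested. All 8 listed neutrophil markers, untested ones included, had summed levels of 8.14 and 8.13 CPM in HB livers and 18.4 and 44.5 CPM in HF livers. Of 5 neutrophil markers tested, 4 were called lower and 0 higher. Without HB replicate 1 the count was 0, without HB replicate 2 or HF replicate 2 it was 1, and without HF replicate 1 it was 3. The defining neutrophil marker Ly6g had 0 reads in all 4 mRNA libraries. Of 5 red cell markers tested, 3 were called higher (Hbb-bs, Hbb-bt and Alas2), while Hba-a1 and Hba-a2 overlapped between diets and were not called. The list had summed levels of 546.3 and 1620 CPM in HB livers and 383.5 and 321.8 CPM in HF livers, and 2 to 5 were called when a library was left out. Of 10 markers of sinusoidal endothelial cells, which share the sinusoid with Kupffer cells, 0 were called higher and 1 lower, Stab1, and their sum was 277.4 and 368.8 CPM in HB livers and 484.2 and 442.9 CPM in HF livers. Of 9 stellate cell markers 1 was called higher, Dcn, with summed levels of 265.5 and 205.3 CPM in HB livers and 157.0 and 134.4 CPM in HF livers. Of 8 hepatocyte markers 1 was called higher, Cyp2e1. Stab1, Dcn and Cyp2e1 each lost the call without HB replicate 1 and without HF replicate 1, and Dcn also without HF replicate 2 and with total counts. T and NK cell markers (4 tested), B cell markers (3 tested) and cholangiocyte markers (4 tested) had 0 calls in either direction, apart from 1 T and NK cell marker, Cd8a, lower with total counts (edgeR adjusted p = 0.0486), and their summed levels were under 10 CPM in every mRNA library.

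The changes in total mRNA also ran with transcript length over all genes. Among the 12817 genes in 5 equal groups by length, the median log2 change was 0.36 in the shortest group (174 to 1553 nt) and -0.24 in the longest (4608 nt and above). The 4 markers that rose have transcripts of 1057 nt (Lyz2), 1432 nt (Vsig4), 1985 nt (Marco) and 2037 nt (Cd5l). The shortest group, with Lyz2 and Vsig4, had 20.0% of its genes called higher, and the next group (1554 to 2338 nt), with Marco and Cd5l, had 15.3%. All 4 markers lay above the median of their own length group. In a fit with the length trend of each library removed, an alternative added after the data were seen, Lyz2 had a log2 change of 2.05 (edgeR adjusted p = 0.0121), Cd5l of 1.46 (edgeR adjusted p = 0.0168) and Marco of 1.49 (edgeR adjusted p = 0.0427). Vsig4 no longer passed, with 1.05 (edgeR adjusted p = 0.0835). Folr2 and C1qc passed in that fit and C1qb did not (edgeR adjusted p = 0.0204, 0.0226 and 0.0716 in that order). Dcn and Cyp2e1 passed there too and Stab1 did not (edgeR adjusted p = 0.0404, 0.0217 and 0.0889 in that order).

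**Figure D3:**
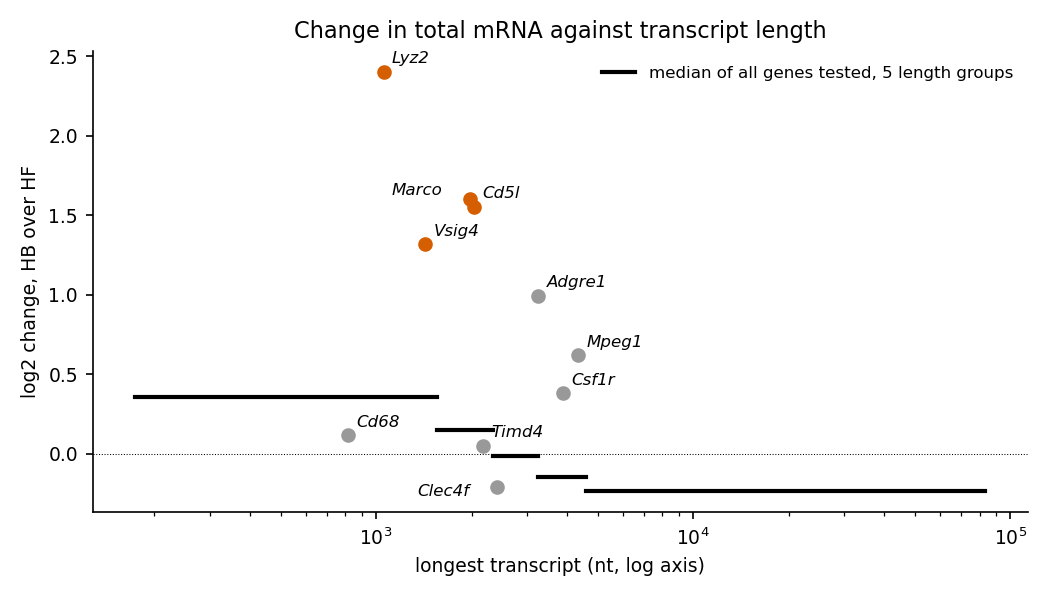
Log2 change in total mRNA, HB over HF, of the 10 markers (points, orange where called) against the length of the longest transcript on a log axis, with the median of all genes in 5 length groups as lines. The medians run from 0.36 in the shortest group to -0.24 in the longest, and Lyz2, Vsig4, Marco and Cd5l lie above the median of their length group.

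In the ribosome-bound libraries 5 of the 10 markers had reads in all 4 libraries, 4 in some of them and 1, Adgre1, in none. More than 3 reads were found for 7 and 7 markers in the HB libraries and for 5 and 8 in the HF libraries. Of all genes tested in mRNA, 70.7% and 70.7% had more than 3 reads in the HB libraries and 63.1% and 67.8% in the HF libraries, so the markers were seen about as often as other genes. The same counts resulted at a minimum of 1 read and of more than 10 reads, because the lowest count of a marker above 0 was 25. A count of 0 allows up to 3 reads of counting error, but given the missing low counts noted above it does not bound the level of a transcript.

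Clec4f was the marker with the most ribosome-bound reads. It had 1470 and 1931 reads in the HB libraries and 1538 and 995 in the HF libraries. At its mRNA level in the same diet, scaled to each library, 1033 and 1372 reads would have been found in HB and 1086 and 1219 in HF. In 3 of the 4 libraries it lay above and in 1 below that mark, and the log2 ratio of ribosome-bound to total mRNA was 0.54 ± 0.37 in HB and 0.17 ± 0.31 in HF (edgeR adjusted p = 0.340 and 0.770). The median log2 ratio of all 12634 genes tested was -0.71 in HB and -0.56 in HF. Csf1r had 166 and 169 reads in the HB libraries and 171 and 175 in the HF libraries, below its mRNA level in all 4, with log2 ratios of -1.15 ± 0.43 in HB and -0.47 ± 0.34 in HF (edgeR adjusted p = 0.121 and 0.407). With 8 libraries, where the near-identical HB pair counts as 2, the HB ratio of Csf1r passed (edgeR adjusted p = 0.0235). With the replicate number as a block it did not (0.134). Marco, although scarce in mRNA, had 77 and 104 reads in the HB libraries and 67 and 49 in the HF libraries. Its mRNA level would give 58.5 and 77.7 reads in HB and 17.4 and 19.6 in HF. The log2 ratio of Marco was not called in either diet, at 0.45 ± 0.81 in HB and 1.68 ± 0.70 in HF (edgeR adjusted p = 0.740 and 0.157).

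Cd5l and Cd68 did not pass the test for a change of their ratio with diet in the 7 libraries. Cd5l had 203 and 280 ribosome-bound reads in HB, where its mRNA level would give 657.6 and 873.4, and 185 and 368 reads in HF, where its mRNA level would give 203.1 and 228.1. Its HB and HF ribosome-bound reads overlapped, while its mRNA levels did not, with a change of the log2 ratio of -1.97 ± 0.71 (edgeR adjusted p = 0.224). Cd68 had 33 and 39 reads in HB and 114 and 117 reads in HF, with a change of the log2 ratio of -2.05 ± 0.90 (edgeR adjusted p = 0.321). With DESeq2 the adjusted p of Cd68 was 0.0457. Without HF ribosome-bound replicate 1 the edgeR adjusted p was 0.0233 for Cd68 and 0.00544 for Cd5l, and without replicate 2 it was 0.0154 and 0.0503, in fits whose spread comes from the mRNA libraries alone. In HB alone the log2 ratio was -1.62 ± 0.58 for Cd5l and -1.63 ± 0.73 for Cd68, neither called in the 7 libraries. With 8 libraries, where the near-identical HB pair counts as 2, both passed (edgeR adjusted p = 0.0167 and 0.0313). With the replicate number as a block, Cd5l passed and Cd68 did not (0.0428 and 0.203). For Lyz2, 28 and 25 ribosome-bound reads were counted in HB, where its mRNA level would give 341.1 and 453.0, and 0 and 25 reads in HF, where it would give 58.5 and 65.7. Lyz1, with which Lyz2 can share reads, had 97 and 109 reads in the same HB libraries and 0 and 0 in the HF libraries, so how far Lyz2 lay below its mRNA level depends on how reads were divided. Vsig4 had 0 reads in both HB libraries and 0 and 73 in the HF libraries, and Timd4 had 0 reads in both HB libraries and 0 and 28 in the HF libraries.

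**Figure D4:**
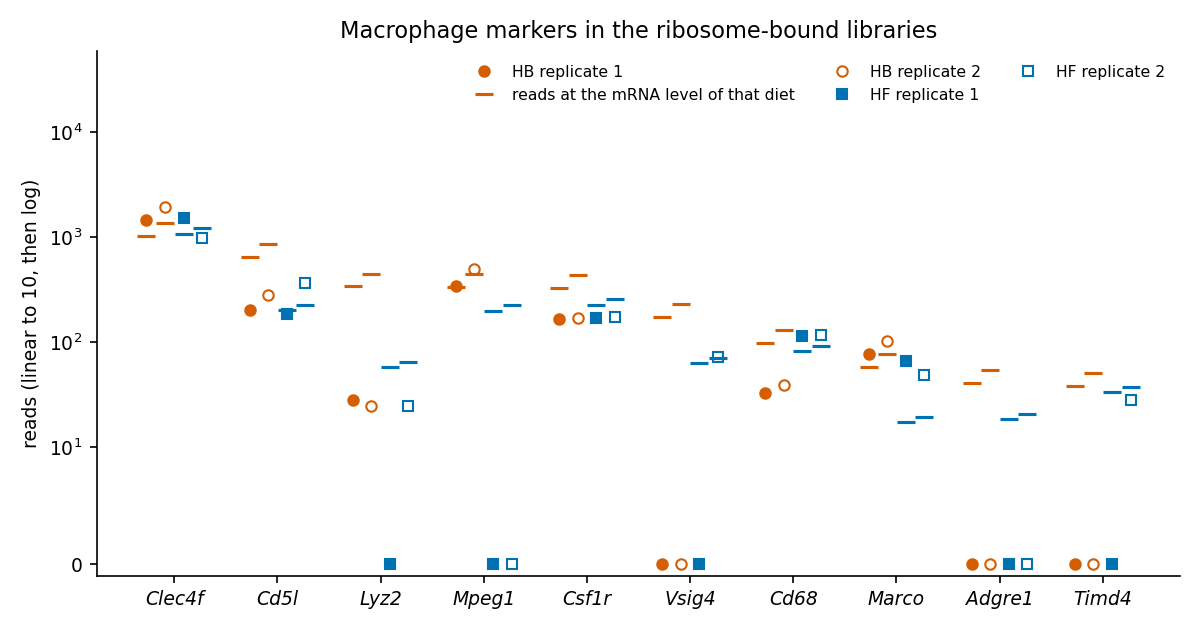
Reads of the 10 markers in the ribosome-bound libraries, HB as circles and HF as squares with replicate 2 open, on an axis linear to 10 and logarithmic above. Dashes mark the reads that each marker would have at its mean mRNA level in the same diet; Adgre1 lies at 0 in all 4 libraries and Mpeg1 at 0 in both HF libraries.

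Mpeg1 showed the sharpest split between diets. It had 345 and 504 ribosome-bound reads in HB, close to the 340.4 and 452.0 reads that its mRNA level would give, and 0 reads in both HF libraries, where 200.3 and 224.9 reads would be found at its mRNA level. No fold is given, because a count of 0 does not bound a level in these libraries. The change of its ribosome-bound to total ratio with diet passed the test (edgeR adjusted p = 0.0319), where 10.5% of genes were called, 6.49% higher and 4.02% lower. It was the 1 marker of 10 called in that comparison. Without any 1 of the mRNA libraries the call of Mpeg1 was lost, and so was that of every other gene. With the replicate number as a block its edgeR adjusted p was 0.170, in a fit that called 0 genes. The pattern of 0 reads in both HF and more than 20 reads in both HB ribosome-bound libraries was found in 881 of 12634 genes tested (6.97%), and the reverse pattern in 408 (3.23%).

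Zeros were common among genes at the level of the scarce markers. Of 3204 genes with a mean of 2 to 10 CPM in mRNA, the range of Adgre1, Timd4 and Marco, 50.8% and 50.7% had 0 reads in the HB ribosome-bound libraries and 63.3% and 56.1% in the HF libraries, and 26.0% had 0 in all 4, as Adgre1 did. Of 5100 genes at 10 to 50 CPM, where Mpeg1, Csf1r, Lyz2, Vsig4 and Cd68 lie, 15.1% and 14.6% had 0 reads in the HB libraries and 23.6% and 18.8% in the HF libraries. Above 50 CPM, with Clec4f and Cd5l, 1.05% to 2.67% were at 0 in a library. Adgre1 was called lower in ribosome-bound than in total mRNA in both diets (edgeR adjusted p = 0.0282 in HB and 0.0204 in HF) and Mpeg1 in HF (edgeR adjusted p = 0.0103). These calls rest on counts of 0, which do not bound a level in these libraries. At its mRNA level Adgre1 would have had only 40.9 and 54.3 reads in HB and 18.6 and 20.8 in HF. The call of Adgre1 in HB was lost without any 1 mRNA library, as were the calls of all other genes. It was also lost with the replicate block (edgeR adjusted p = 0.220), a fit that called 1332 genes, with Cd5l as the only marker among them. The calls in HF were lost without either HF mRNA library, again with those of all other genes. With the replicate block the edgeR adjusted p in HF was 0.282 for Adgre1 and 0.0772 for Mpeg1, in a fit that called 19 genes. Before these alternatives, 1 of 10 markers was called in HB and 2 of 10 in HF. Of all genes, 28.4% were called in HB (22.0% lower and 6.36% higher) and 28.6% in HF (24.7% lower and 3.92% higher).

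Between the diets, 0 of the 9647 genes tested in ribosome-bound mRNA were called by edgeR, with 338 at an unadjusted p below 0.05, so 0.00% of genes and 0 of the 7 markers tested passed. This fit has 1 residual degree of freedom and could hardly have called any gene, so its 0 calls say nothing about how the diets compared. DESeq2 called 804 genes there, Mpeg1 among them (DESeq2 adjusted p = 2.70e-05). The fit of all 4 ribosome-bound libraries, in which the near-identical HB pair counts as 2, called 1728 genes and again Mpeg1 (edgeR adjusted p = 0.0340). With the replicate number as a block, the same 4 libraries gave 0 calls and an edgeR adjusted p of 0.438 for Mpeg1.

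The m6A peak lists, which give a fold enrichment over the local background as the authors' peak caller computed it, held at least 1 peak over 5 and 5 of the 10 markers in the HB libraries and over 5 and 6 in the HF libraries. Of all genes tested in mRNA that have a RefSeq span, 58.9% and 59.6% had a peak in the HB libraries and 59.7% and 62.6% in the HF libraries. Clec4f carried the strongest peak of the 10 markers, at the same place in all 4 lists. Its summit lay 3441 and 3442 bases from the gene start in HB and 3423 and 3421 bases in HF, within chr6:83652397-83653092 in HB replicate 1 (mm10, the build of the deposited peaks). The fold enrichment there was 30.7 and 25.5 in HB and 33.3 and 47.3 in HF, with a pileup of 4077 and 3792 in HB and 3000 and 2552 in HF. The HF folds were both above the HB folds and the HF pileups both below the HB pileups, with no test on the authors' scores.

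Mpeg1 also had a peak in all 4 lists, with a summit 1260 and 1193 bases from its start in HB and 1256 and 1244 bases in HF, and folds of 11.4 and 11.8 in HB and 10.5 and 7.02 in HF. HF replicate 2 had 2 further Mpeg1 peaks, with summits 2485 and 3541 bases from the start and folds of 12.1 and 6.57. Mpeg1 was thus present in both m6A lists of HF livers, although it had 0 ribosome-bound reads there. Cd5l and Lyz2 had a peak in HF replicate 2 alone, with folds of 11.4 and 7.80. The peaks over Adgre1, Vsig4 and Timd4 were small, with pileups of 10.8 to 56.8, and most lay at different places in different lists. Cd68, Csf1r and Marco had no peak in any list. Whether a peak lies in an exon or an intron was not examined.

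**Figure D5:**
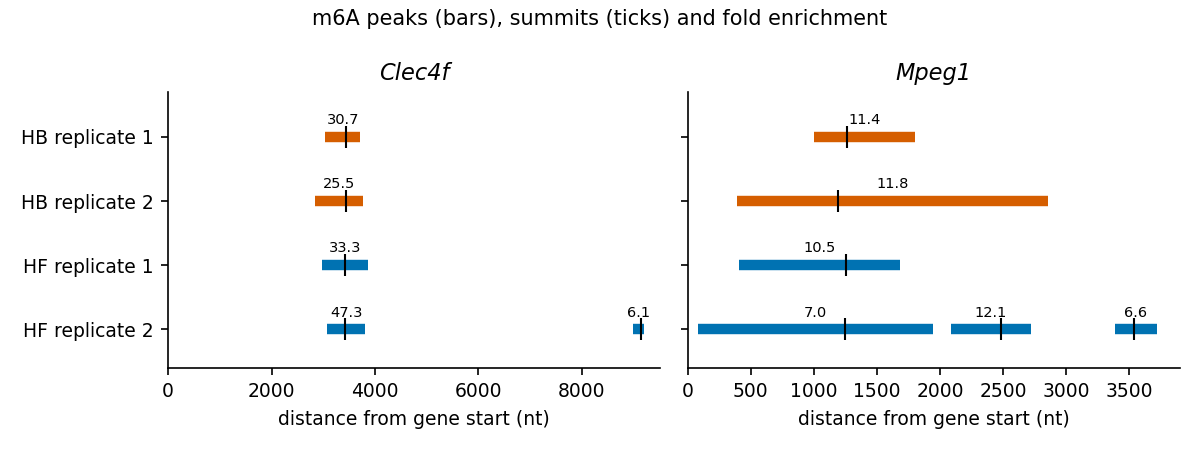
Deposited m6A peaks over Clec4f and Mpeg1 by library, HB above HF, drawn as bars against the distance from the gene start in nucleotides, with summits as ticks and fold enrichment as numbers. The Clec4f summit lies 3421 to 3442 bases from the start in all 4 lists, with folds of 25.5 to 47.3, and the Mpeg1 peak with its summit 1193 to 1260 bases from the start recurs in all 4.

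The genes whose profile was most like that of the summed markers were sought among 9571 genes with a mean of at least 5 CPM in mRNA, by the root mean square difference of centred log2 profiles over 7 libraries (HB ribosome-bound pair summed). They were Miga2 (0.104), Coq2 (0.125), Hoga1 (0.142), Dnajc1 (0.146) and Alas1 (0.163). Miga2, for example, stood at 127.1 and 124.2 CPM in HB mRNA and 72.6 and 85.4 CPM in HF mRNA, next to 455.6 and 406.4 CPM for the summed markers in HB mRNA and 280.4 and 322.5 CPM in HF mRNA. No other macrophage gene of the lists was among these 5. The summed profile is weighted towards Clec4f, which made up 30.5% to 61.5% of it in the mRNA libraries. In the ribosome-bound libraries Clec4f held 235.1 of 317.2 and 135.6 of 249.4 CPM in HF and 208.5 of 329.5 CPM in HB. The likeness therefore does not describe the profile of each marker.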

How the data were processed

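Livers of HB and HF mice were analysed in 8 count tables and 4 m6A peak lists, 2 per diet and kind of library, and m6A input samples were not analysed here. The read counts deposited by the authors are raw reads per gene with splice variants merged, from polyadenylated RNA mapped to RefSeq RNA sequences, per the labels. RPKM values were deposited beside them and are scaled, per the file headers, to the longest transcript and the library. The submitters' processing notes name edgeR, HOMER 4.8, MACS2 2.1.0.20151222, HTSeq 0.6.0, HISAT2 2.0.4 and cutadapt 1.9.3, without roles; the aligner, strand setting and handling of reads shared by genes for the count tables are not given in the sources used here. For m6A, the labels' protocols name Trimmomatic 0.36 for trimming and TopHat 2.0.13 for alignment. Each library has its own deposited peak list with, per the file headers, a pileup signal, −log10 p-values and q-values and a fold enrichment, which was at least 6.00 in each list.

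Counts were tested with edgeR 4.0.16 (R 4.3.3; TMM, filterByExpr, quasi-likelihood F test, Benjamini-Hochberg adjustment over all genes tested, threshold 0.05). Total mRNA used its 4 libraries (12817 genes), ribosome-bound mRNA 3 libraries with the HB pair summed (9647 genes), and ratios 7 libraries in a model of 4 group means (12634 genes). The HB ribosome-bound group then has 1 value, assumed to vary like the other groups. Fits were tested on simulated counts that gave all genes the same spread. There the mRNA fit recovered nearly all of the larger changes and few of the smallest. The ribosome-bound fit recovered none and the HF ratio fit almost none, so a gene that was not called may still differ. The HF ratio fit called 3618 genes in the real counts, which this simulation therefore does not describe. The HB ratio and the change of the ratio were not simulated. DESeq2 1.42.0, total-count scaling, no filter, replicate blocks and left-out libraries were alternatives. A peak was assigned to a gene that it overlapped by at least 1 base on GRCm38.p6, whose primary assembly is that of mm10. The markers, the 14 further lists and the tests were chosen with earlier results of these data known. Named genes were the 10 markers, and up to 2 called genes with the largest change in each list, or the gene with the smallest p where none was called; the remaining genes named in the text were chosen after their values were seen.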

Additional observations from a re-analysis of the deposited data

Results flagged for a closer look

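The change of Mpeg1 with diet differed between ribosome-bound and total mRNA (interaction, edgeR adjusted p = 0.0319). Mpeg1 had 345 and 504 ribosome-bound reads in HB and 0 and 0 in HF, beside 51.3 and 34.9 CPM in HB mRNA and 23.4 and 32.6 CPM in HF mRNA. In the ratio fits the HB pair counts as 1 library, and 881 of 12634 genes had the same pattern of zeros.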

How the results depend on the processing

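Of 130 log2 changes of the markers in total mRNA under alternative settings, 104 kept direction and side of the threshold, 16 kept direction and lost the call, and 10 turned sign, all of them of uncalled markers. These were Adgre1 at -0.03 without HB replicate 1, Cd68 at -0.17 with total counts and -0.20 without HF replicate 1 and with the length trend removed (with and without the block), and Timd4 at -0.23 with total counts, -0.03 without HB replicate 1, -0.08 without HF replicate 1 and -0.01 with the length trend removed (with and without the block). When 1 library was left out, the log2 change lay between -0.03 and 1.57 for Adgre1, -0.20 and 0.46 for Cd68, and -0.08 and 0.14 for Timd4. The ratios in HF turned to -0.28 for Clec4f without HF ribosome-bound replicate 1 and -0.12 for Cd5l without HF ribosome-bound replicate 2, within leave-one-out ranges of -0.28 to 0.52 and -0.12 to 0.78. The 4 called markers became 2 with total counts (Lyz2 and Cd5l), 2 with the length trend removed and the replicate block, 0 in the 7-library fit, and 1 to 4 when a library was left out. In the 7-library fit, whose spread includes the ribosome-bound libraries, the adjusted p-values were 0.633 (Lyz2), 0.285 (Cd5l), 0.430 (Marco) and 0.932 (Vsig4). Genes called in mRNA numbered 2740, and 776 to 3024 with a library left out, 1316 with length trend and block, and 0 with 7 libraries (edgeR, 1647 at an unadjusted p below 0.05). Total counts called 783 higher and 2320 lower, in place of 1446 and 1294.

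For ribosome-bound mRNA the 0 calls became 804 with DESeq2, 1728 with 4 libraries and 1459 with 7, each with 1 marker, and remained 0 with 4 libraries and the replicate block (edgeR, 1021 at an unadjusted p below 0.05). Without an HF ribosome-bound library that contrast has no residual degrees of freedom and no test. The ratio in HF had 3618 calls and 2 markers, 19 and 0 with the replicate block, and 0 to 7856 calls and 0 to 6 markers with a library left out. The ratio in HB had 3584 calls and 1 marker, 5428 and 5 with 8 libraries, 1332 with the block, 6 markers with DESeq2, and 0 to 8191 calls and 0 to 7 markers with a library left out. DESeq2 split the calls in HF into 1115 higher and 2921 lower, in place of 495 and 3123, and those of the change of the ratio into 1081 and 1106, in place of 820 and 508. The change of the ratio had 1328 calls and 1 marker, 2187 and 3 with DESeq2, 2053 with 8 libraries, 0 and 0 with the block, and 0 to 4859 calls and 0 to 6 markers with a library left out. Fits without an HF ribosome-bound library take their spread from the mRNA libraries alone. The summed level of the markers moved to a ratio of 1.16 with total counts, and the HB replicate 2 markers with an m6A peak from 5 to 3 at a fold of at least 10. The cause of these differences was not tested. Same-numbered HB and HF mRNA libraries deviated with a correlation of -0.117, so the numbers do not pair them; a block called 2936 genes and a crossed block, added later, 3407, both with the same number of markers, 4. In the ribosome-bound libraries 13 of 40 marker values were 0, and what set them was not tested.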

Other observations

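Genes of the signals and origins of macrophages were also read in total mRNA, where 11.3% of all genes were called higher and 10.1% lower. At these shares, 0 calls in lists as short as these say little. Of the 3 genes of the CSF1 receptor axis tested, 0 were called, though Csf1 passed as lower with total counts (edgeR adjusted p = 0.0319). The growth factor Csf1 stood at 10.1 and 10.03 CPM in HB livers and at 15.4 and 19.0 CPM in HF livers (log2 difference -0.77, edgeR adjusted p = 0.0915), with 17 and 26 ribosome-bound reads in HB and 197 and 62 in HF. Of 8 monocyte and lipid-associated macrophage genes tested, 0 were called. The summed level of all 12 listed genes, untested ones included, was 30.9 and 47.0 CPM in HB livers and 41.5 and 50.9 CPM in HF livers, with overlap. Ccr2, the chemokine receptor of inflammatory monocytes, was at 0.904 and 0.444 CPM in HB livers and 1.11 and 2.59 CPM in HF livers.

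Of 10 leukocyte genes, 1 rose and 1 fell, near the shares of all genes (11.3% higher and 10.1% lower). Neither call held without HB replicate 1 or without HF replicate 1. Ctss, the lysosomal protease cathepsin S, stood at 31.9 and 24.3 CPM in HB livers and at 7.34 and 12.3 CPM in HF livers (log2 change 1.51 ± 0.34, edgeR adjusted p = 0.0138). Ptprc, the common leukocyte antigen CD45, stood at 8.61 and 9.52 CPM in HB livers and at 18.9 and 22.0 CPM in HF livers (log2 change -1.17 ± 0.31, edgeR adjusted p = 0.0219, or 0.125 without HF replicate 2), and had 0 reads in all 4 ribosome-bound libraries. With the length trend removed, Ctss passed and Ptprc did not (edgeR adjusted p = 0.0385 and 0.0505). C1qc, which rose in mRNA, had 81 and 82 ribosome-bound reads in HB and 167 and 116 in HF, and Folr2 had 0 in all 4 libraries.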
